A study of Rattus norvegicus with 8 samples.

Results

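The cytotoxic effector genes are the genes of the weapons and alarm signals that a killer lymphocyte carries, and 10 of the 32623 genes in the count tables were taken by symbol: Gzma, Gzmb, Gzmk, Gzmm, Prf1, Nkg7, Ctsw, Ccl5, Xcl1 and Ifng. Their transcripts were counted in 2 classes of cells of the rat spinal cord. A cell with at least 2 transcripts of Cd3d, Cd3e and Cd3g together, which encode chains of the T cell receptor complex, was called a Cd3 cell, and a cell with none of these transcripts and at least 1 of Klrd1, which encodes the CD94 chain of a natural killer (NK) receptor, was called a Klrd1 cell. Of 55455 cells that passed quality control, 1477 were Cd3 cells (2.66%) and 428 were Klrd1 cells (0.772%). A single Klrd1 UMI was all that 132 of the Klrd1 cells held. The spinal cords came from female Wistar rats aged 8 weeks and were taken a week after surgery. Rats of the sham group had the laminectomy that all animals had and no blow to the cord, and rats of the mild, moderate and severe groups had a contusion by a weight dropped from an increasing height. Each of the 4 groups had 2 libraries of single cells made by droplet 3' sequencing with unique molecular identifiers (UMIs), so a UMI stands for 1 captured transcript. Cells of the cord were present as labelled, with 3700 kept cells passing an oligodendrocyte gate (Mag, Mog, Ermn) and 16920 a gate for C1q transcripts of microglia and macrophages. The study's text counts as many spinal cords as there are libraries, although the sample labels name no animal. The p-values of the count tests (edgeR) below weigh a difference against the spread between these libraries. In these tests the spread of each gene is drawn towards that of other genes.

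Cytotoxic lymphocytes, that is NK cells and CD8 T cells, kill a target by releasing granules onto it. Perforin (Prf1) opens the target membrane and granzymes, which are serine proteases, enter and cut proteins that lead to cell death. Nkg7 is a granule membrane protein needed for efficient release, and cathepsin W (Ctsw) is a papain-type protease made mostly by cytotoxic lymphocytes. The same cells secrete the chemokines Ccl5, which attracts leukocytes, and Xcl1, which attracts dendritic cells through Xcr1, and the cytokine interferon gamma (Ifng), which activates macrophages. Factors of the T-box family (Tbx21, Eomes) and the RUNX family drive several of these genes.

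The 250 bases before the transcription start were therefore searched for the core letters that these factors bind, TGTGGT for RUNX and TCACAC for T-box, on both strands (ACCACA and GTGTGA on the other). The sequences are RefSeq's for build GRCr8, and the deposited counts were made on Rnor_6.0. Promoters of 8 of the 10 members were matched, all but those of Ccl5 and Ctsw. RUNX letters lay in 7 of the 8, against 14.5% of 33469 promoters of the same length, and T-box letters in 4 of the 8 (Gzmb, Gzmk, Gzmm, Nkg7), against 11.6%. A match is a description of letters, not a binding site. The promoters printed here, chosen after the matches were seen, are those of the 4 members with both motifs and that of Xcl1, whose cells differed from the other members' cells, and capitals mark the motifs.
Gzmk, chr2:46582016-46582265, minus strand: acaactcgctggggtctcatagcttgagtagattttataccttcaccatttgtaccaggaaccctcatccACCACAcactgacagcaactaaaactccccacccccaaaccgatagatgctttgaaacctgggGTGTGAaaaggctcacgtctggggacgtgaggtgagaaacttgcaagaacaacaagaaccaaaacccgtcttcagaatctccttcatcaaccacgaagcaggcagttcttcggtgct
Gzmm, chr7:10667257-10667506, minus strand: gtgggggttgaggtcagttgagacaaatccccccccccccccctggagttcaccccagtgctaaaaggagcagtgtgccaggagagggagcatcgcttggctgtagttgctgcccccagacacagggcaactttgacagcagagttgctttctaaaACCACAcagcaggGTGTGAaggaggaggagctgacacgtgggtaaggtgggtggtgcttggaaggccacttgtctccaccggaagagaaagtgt
Nkg7, chr1:102981247-102981496, plus strand: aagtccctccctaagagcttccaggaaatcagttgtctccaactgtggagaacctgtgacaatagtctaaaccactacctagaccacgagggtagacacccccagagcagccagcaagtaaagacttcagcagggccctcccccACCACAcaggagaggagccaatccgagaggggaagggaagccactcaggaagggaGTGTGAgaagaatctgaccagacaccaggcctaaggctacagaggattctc
Gzmb, chr15:34462470-34462719, minus strand: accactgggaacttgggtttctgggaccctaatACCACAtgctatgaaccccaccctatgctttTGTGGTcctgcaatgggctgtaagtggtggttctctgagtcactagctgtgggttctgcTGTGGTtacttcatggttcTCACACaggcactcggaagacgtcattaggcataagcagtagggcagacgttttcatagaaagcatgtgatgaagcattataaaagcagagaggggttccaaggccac
Xcl1, chr13:79785441-79785690, minus strand: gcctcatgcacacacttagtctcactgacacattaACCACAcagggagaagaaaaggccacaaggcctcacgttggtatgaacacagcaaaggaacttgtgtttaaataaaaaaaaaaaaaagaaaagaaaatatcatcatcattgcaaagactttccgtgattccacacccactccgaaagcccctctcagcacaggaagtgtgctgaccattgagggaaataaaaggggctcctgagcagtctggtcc
In Gzmk the RUNX letters began 180 bases and the T-box letters 117 bases before the start, in Gzmm 94 and 81 bases, and in Nkg7 106 and 51 bases. Gzmb had 3 RUNX matches, at 217, 186 and 127 bases, and a T-box match at 108 bases. Xcl1 had only a RUNX match, at 215 bases, and the promoter of Ifng had neither.

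The libraries were unequal sources of these cells. Deposited libraries held 31482153 (sham 2) to 131045446 (severe 2) UMIs, and 555 of 68095 distinct barcodes occurred in more than 1 library. The numbers of Cd3 cells in replicates 1 and 2 were 365 and 6 in sham, 259 and 84 in mild, 202 and 69 in moderate, and 226 and 266 in severe. Of Klrd1 cells there were 322 and 1 in sham, 18 and 1 in mild, 24 and 10 in moderate, and 26 and 26 in severe, so that sham 1 supplied 75.2% of the class. Sham 1 stood apart from the other 7 libraries in further ways: its kept cells had a median of 2745 UMIs (6152.5 to 10836 in the injured libraries, 9282.5 in sham 2), 2608 of its 9190 kept cells passed a neutrophil gate (Csf3r and Cxcr2), and the 6 neutrophil markers summed to 34216 per 1000000 UMIs (CPM) in its Klrd1 cells, against 11.8 to 37.6 in the other 3 libraries with at least 20 Klrd1 cells. The part of these differences in the sham values below was not tested. Levels are given in CPM, a gene's UMIs per 1000000 UMIs of the class in a library, and a library was used for a class in a test where it had at least 20 of its cells.

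The Cd3 class held a subset that carried Cd3g nearly without Cd3d and Cd3e, found after the data were seen. In 216 of the 1477 Cd3 cells (14.6%) there were at least 2 UMIs of Siglech, a dendritic cell marker. These cells held 773 UMIs of Cd3g, but only 4 of Cd3d and 2 of Cd3e, and 8 of Cd8a. Other T cell genes were divided. Cd2 was at 34.1 CPM against 294 CPM in the rest of the class, Lat at 54.1 against 333 CPM and Lef1 at 1.48 against 189 CPM. Cd5 was at 87.4 against 91.7 CPM and Cd4 at 20.01 against 19.2 CPM. In cells with Siglech outside both classes Cd5 and Cd4 were at 94.7 and 29.8 CPM. They also held Irf8 at 1637 CPM, against 34.95 CPM in the other Cd3 cells, and Flt3 at 112 against 1.90 CPM, both from the same marker list. They made up 0% of the Cd3 cells of sham 1, 17.7% and 26.1% of those of the severe libraries and 13.4% to 19.7% of those of mild and moderate, and were 3 of the 6 in sham 2. No Klrd1 cell had 2 Siglech UMIs. Calls of the count tests on Cd3 cells are given with and without the Siglech cells where they differ. Shares of Cd3 cells, members per cell and levels by Klrd1 or coreceptor are given only for the whole class. Siglech cells held 0.358% of the Ccl5, 0.439% of the Ctsw and 76.0% of the Xcl1 UMIs of the class. Their part in the values of the whole class was not tested.

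Klrd1 cells held far more of the granule and chemokine transcripts than Cd3 cells. In a test on UMIs summed per library and class over 4 libraries (sham 1, moderate 1, severe 1 and severe 2), with the library as a block and p-values adjusted over 8057 genes (edgeR), 7 of the 9 members tested were higher in Klrd1 cells and none was lower. Among all genes tested, 1.94% were higher and 3.74% differed in either direction. The median log2 fold change of the 9 members was 3.14, against -0.09 over all genes. Scaling by library size alone moved the median of all genes to 0.12 and the split of calls from 156 higher and 145 lower to 145 higher and 65 lower, and left the same count of 7 members higher.

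Gzma, which encodes granzyme A, a tryptase-like protease, separated the classes furthest. Its level in Klrd1 cells was 1114 CPM in sham 1, 615 in moderate 1, 645 in severe 1 and 342 in severe 2, and in Cd3 cells of the same libraries 9.03, 9.25, 5.67 and 7.73 CPM. Every Klrd1 value lay above every Cd3 value. The log2 fold change was 6.14 ± 0.34 (SE; adjusted p = 8.77e-08, edgeR). Of 1758 Gzma UMIs in all kept cells, 92.3% were in Klrd1 cells, although these were fewer than 1 in 100 cells. This and the later shares of a member's UMIs pool all 8 libraries, and sham 1 supplied 75.2% of the Klrd1 cells. The split in the injured libraries alone is not given.

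Gzmk, the gene of another tryptase-like granzyme, was less exclusive. Klrd1 cells held 2452 CPM in sham 1, 966 in moderate 1, 2195 in severe 1 and 2494 in severe 2, and Cd3 cells 69.2, 87.9, 272 and 145 CPM. Klrd1 cells were higher by a log2 fold change of 3.77 ± 0.35 (SE; adjusted p = 1.17e-05, edgeR). The lowest Klrd1 value, that of moderate 1, was still above the highest Cd3 value of any library, 337 CPM in mild 1. Klrd1 cells held 72.3% of its 5500 UMIs. Gzmm, the gene of granzyme M, a protease that prefers methionine and was first known from NK cells, stood at 1682, 1969, 2912 and 4846 CPM in the same order in Klrd1 cells, and at 113, 329, 355 and 282 CPM in Cd3 cells. The classes did not overlap, with a log2 fold change of 3.24 ± 0.35 (SE; adjusted p = 5.58e-05, edgeR). Cd3 cells held 27.3% of its 6359 UMIs, against 19.7% of those of Gzmk and 2.39% of those of Gzma.

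Gzmb, the best known granzyme gene, had 0 UMIs in every library, also among the 68658 deposited cells. A count of 0 allows up to 1.69 CPM in Klrd1 cells and 0.454 CPM in Cd3 cells (3 counts over the class). The gene list holds 3 further rat genes named after it, which were added after the data were seen. Gzmbl2 had 366 UMIs in Klrd1 cells and 53 in Cd3 cells. Its level was 202, 364, 195 and 206 CPM in Klrd1 cells of sham 1, moderate 1, severe 1 and severe 2, and 4.81, 3.08, 3.24 and 10.3 CPM in Cd3 cells, with a log2 fold change of 5.15 (adjusted p = 1.02e-06, edgeR). Gzmbl3 had 83 and 18 UMIs and a log2 fold change of 3.93 (adjusted p = 0.00295, edgeR), with 0 UMIs in the Klrd1 cells of moderate 1. Gzmbl1 had 2 UMIs in all and was not tested. How reads were divided between these near-identical copies and Gzmb was not tested, so the split among them is uncertain.

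Prf1 varied little across libraries. Klrd1 cells held 779 CPM in sham 1, 627 in moderate 1, 436 in severe 1 and 537 in severe 2, and Cd3 cells 60.8, 50.9, 51.0 and 72.8 CPM. The classes did not overlap, and the log2 fold change was 3.14 ± 0.25 (SE; adjusted p = 3.18e-06, edgeR), with the smallest error of the 9 members tested. Nkg7 stood at 1642, 1480, 2931 and 4375 CPM in Klrd1 cells and at 89.1, 130, 283 and 206 CPM in Cd3 cells. Here both severe libraries were above the other 2 in both classes. Between the classes Nkg7 had a log2 fold change of 3.71 ± 0.33 (SE; adjusted p = 8.29e-06, edgeR).

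Ctsw did not follow the other granule genes. In Klrd1 cells it was 62.1 CPM in sham 1, 514 in moderate 1, 1114 in severe 1 and 1893 in severe 2, and in Cd3 cells 164, 292, 627 and 476 CPM. Klrd1 cells were thus below Cd3 cells in sham 1 and above them in the 3 injured libraries. The log2 fold change over the 4 libraries was 0.48 ± 0.49 (SE; adjusted p = 0.779, edgeR), and 0.03 without the Siglech cells (adjusted p = 0.993, edgeR). Without sham 1 it was 1.25 (adjusted p = 0.0283, edgeR), and all 8 members then tested were called higher. With each library left out in turn, 156 to 276 of all genes were called in either direction. Cd3 cells held 67.5% of the 4382 Ctsw UMIs and Klrd1 cells 16.3%, the reverse of the order for Gzma.

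Ccl5 was the member with the most UMIs, 51462 in kept cells. Of these, 70.1% lay in Klrd1 cells with all libraries pooled, and most Klrd1 cells were from sham 1. Klrd1 cells held 24937 CPM in sham 1, 7827 in moderate 1, 11920 in severe 1 and 12971 in severe 2, and Cd3 cells 870, 1596, 1883 and 1531 CPM. Sham 1 was the highest library for Klrd1 cells and the lowest of the 4 for Cd3 cells. Even so, every Klrd1 value was above every Cd3 value (log2 fold change 3.04 ± 0.46, SE; adjusted p = 0.00105, edgeR). Outside both classes, cells with C1q transcripts (C1qa, C1qb, C1qc), a mark of macrophages and microglia, held 35.1 CPM of Ccl5 in sham 1. Elsewhere they held 0.230 to 9.25 CPM. Whether these UMIs were free RNA or the cells' own was not tested.

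Xcl1 was held by both classes and also by cells of neither. In Klrd1 cells it was 47.4 CPM in sham 1, 489 in moderate 1, 462 in severe 1 and 808 in severe 2, and in Cd3 cells 9.03, 122, 29.2 and 81.8 CPM. The log2 fold change was 2.80 ± 0.37 (SE; adjusted p = 0.000331, edgeR). Of the 554 Xcl1 UMIs of the Cd3 class, 421 (76.0%) were in its Siglech cells, at 312 CPM (95% Poisson interval 283 to 343), against 25.3 CPM (21.2 to 29.9) in the other Cd3 cells. These intervals, and all others given here, cover counting error only. Another 233 cells with Siglech lay outside both classes and held 665 Xcl1 UMIs, at 496 CPM (459 to 535). Cells with Siglech thus held 54.1% of the 2006 Xcl1 UMIs, Klrd1 cells 19.2% and Cd3 cells without Siglech 6.63%. Of the other members, the Siglech cells outside both classes held 14 UMIs of Ctsw and no UMI of Gzma, Gzmb, Gzmk, Gzmm, Prf1, Nkg7, Ccl5 or Ifng. Without Siglech cells, 7 of the 8 members tested stayed higher in Klrd1 cells, against 1.95% of all genes, and the log2 fold change of Xcl1 was 3.86 (adjusted p = 0.00052, edgeR).

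Ifng was near the limit of detection, with 55 UMIs in all kept cells. Klrd1 cells of the 4 libraries held 6.54, 37.6, 0 and 11.8 CPM in the order above and Cd3 cells 4.81, 10.8, 4.86 and 2.58 CPM. The classes overlapped and the log2 fold change was 0.60 (adjusted p = 0.837, edgeR). A difference was not detectable at this depth.

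**Figure D1:**
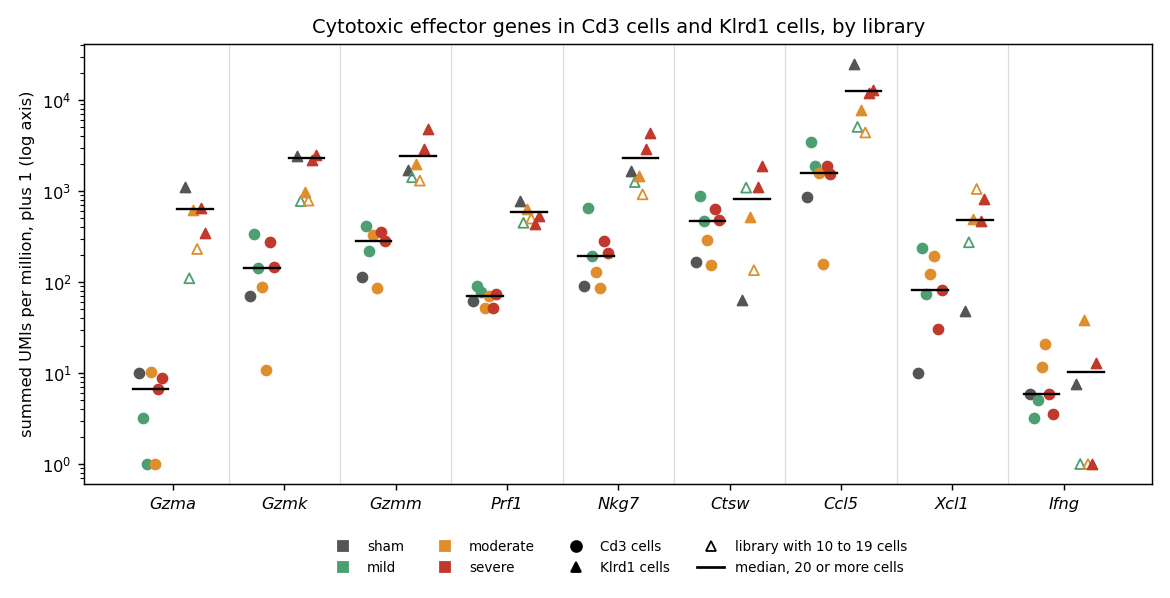
Level of the 9 members with UMIs in each library (y axis, CPM of the class plus 1, log scale), circles for Cd3 cells and triangles for Klrd1 cells, colours for injury groups, open triangles for libraries with 10 to 19 cells and bars for the median over libraries with at least 20 cells. The Klrd1 points of Gzma lie between 109 and 1114 CPM and the Cd3 points at or under 9.25 CPM, while the points of Ctsw and Ifng overlap.

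The same differences were taken library by library, without a count model. On the scale of log2(CPM + 10), the mean Klrd1 minus Cd3 difference over the 4 libraries was 5.15 ± 0.66 (SD) for Gzma, 3.81 ± 0.88 for Gzmk, 3.79 ± 0.49 for Nkg7, 3.35 ± 0.70 for Gzmm, 3.21 ± 1.12 for Ccl5, 3.11 ± 0.37 for Prf1 and 2.57 ± 0.96 for Xcl1, each positive in 4 of 4 libraries. For each of these 7 the exact two-sided sign-flip permutation test gave p = 0.125, the smallest that 4 libraries can give. Ctsw had a mean difference of 0.58 ± 1.35 (exact permutation p = 0.5) and Ifng of 0.39 ± 0.77 (exact permutation p = 0.375), both positive in 3 of 4. With a minimum of 10 cells, set after the data were seen, mild 1 and moderate 2 joined, the 7 members were higher in 6 of 6 libraries, and each exact permutation p was 0.0312, again the smallest possible. Of Ctsw 4 of 6 libraries were then positive. The share of all genes that were higher in every library was not counted, so these counts have no background to be set against.

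**Figure D2:**
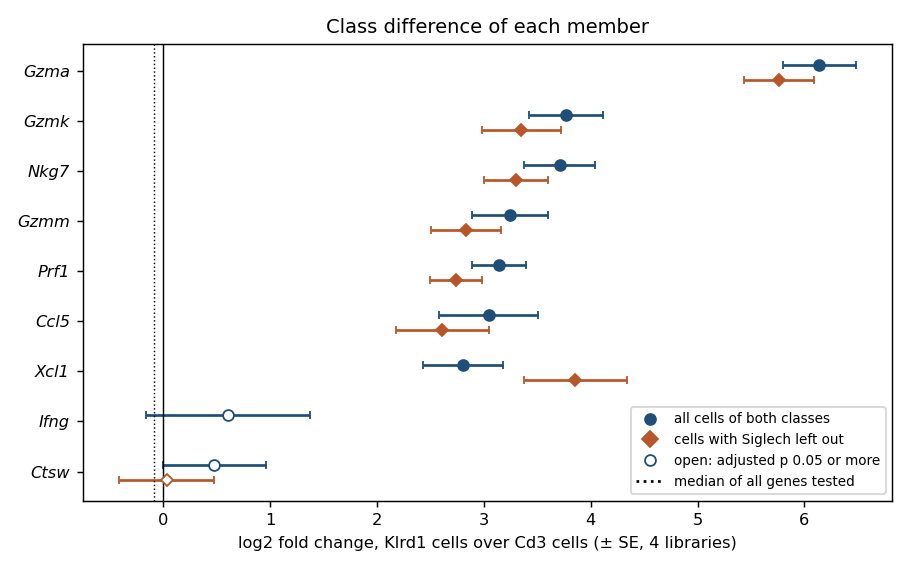
Log2 fold change of each member, Klrd1 cells over Cd3 cells (x axis, ± SE, edgeR, 4 libraries), for all cells of both classes (circles) and with the Siglech cells left out (diamonds), open symbols for an adjusted p of 0.05 or more and a dotted line for the median of all genes tested (-0.09). Gzma lies furthest to the right at 6.14, Xcl1 moves from 2.80 to 3.86 when Siglech cells are left out, and Ctsw moves to 0.03.

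**Figure D3:**
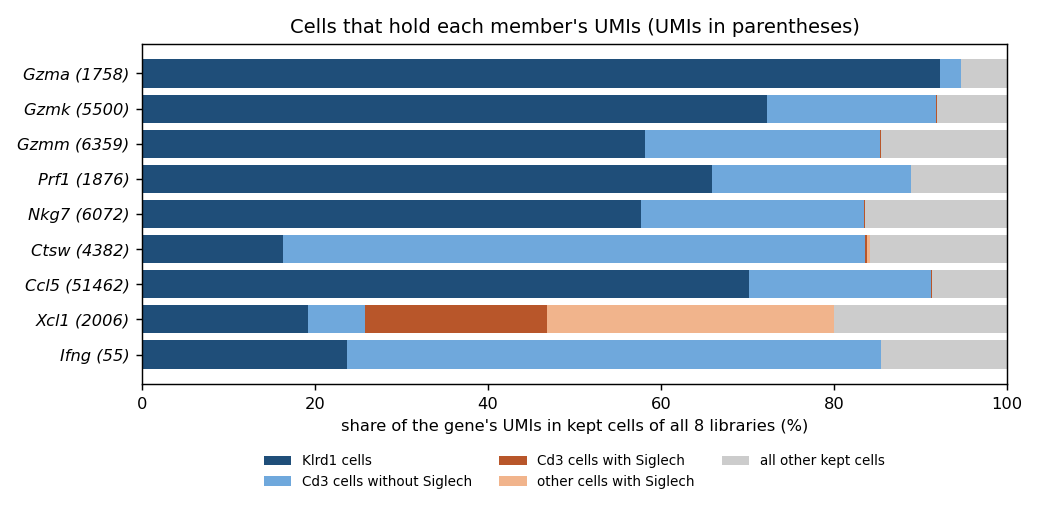
Share of each member's UMIs (x axis, percent of its UMIs in the kept cells of all 8 libraries, whose number follows the name) that lay in Klrd1 cells, in Cd3 cells without and with Siglech, in other cells with Siglech and in all other kept cells. Klrd1 cells held from 16.3% (Ctsw) to 92.3% (Gzma) of a member's UMIs, and cells with Siglech held 54.1% of those of Xcl1. Sham 1 supplied 75.2% of the Klrd1 cells, and the shares are not split by library.

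The share of cells that held a member was compared at an equal depth, for which UMIs were drawn at random down to 1000 in every cell. This kept 403 of 428 Klrd1 cells and 1442 of 1477 Cd3 cells. Ccl5 was found in 81.4% of Klrd1 cells (95% Wilson interval 77.3 to 84.9%) and 13.7% of Cd3 cells (12.1 to 15.6%). Gzmk was found in 72.7% and 9.08%, Gzmm in 72.5% and 15.7%, Nkg7 in 72.2% and 13.9%, Prf1 in 48.6% and 7.56%, and Gzma in 43.4% and 0.416%. Xcl1 was found in 11.9% and 4.44% and Ifng in 0.744% and 0.277%. Ctsw alone had the lower pooled share in Klrd1 cells, 16.1% (12.9 to 20.04%) against 26.7% (24.5 to 29.0%) of Cd3 cells, and this order was that of sham 1, which supplied 301 of the 403 Klrd1 cells. In sham 1 Ctsw was found in 13 of 301 Klrd1 cells and 41 of 349 Cd3 cells, and in the injured libraries in 52 of 101 Klrd1 cells and 344 of 1087 Cd3 cells. These shares pool libraries and were not tested. Cells of other types gave a low share, and whether it came from free RNA or from the cells' own transcripts was not tested. In C1q cells Ccl5 was found in 0.220% and in cells of the neutrophil gate in 4.29%, and every other member in at most 0.366% of either.

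**Figure D4:**
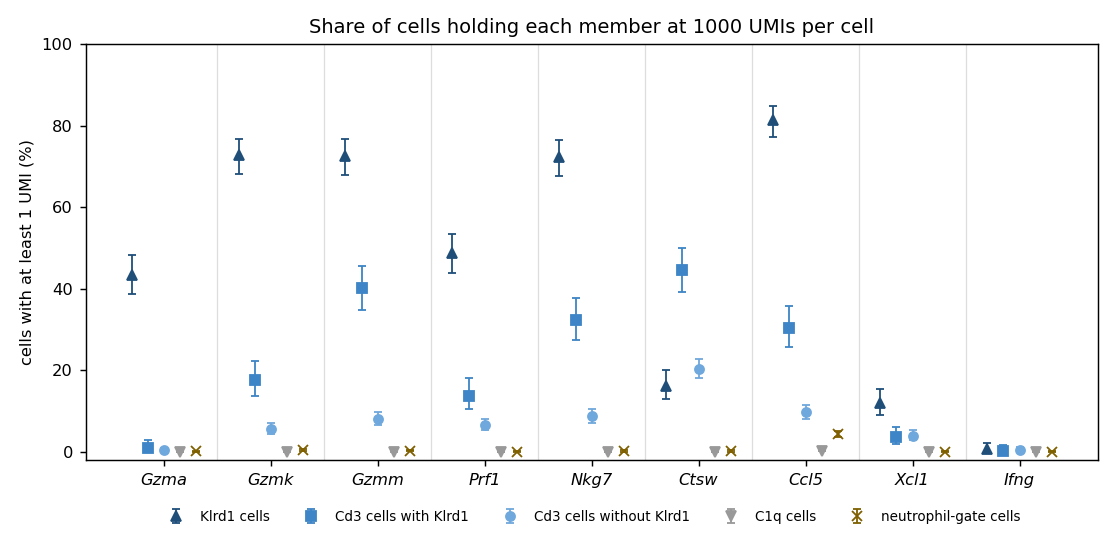
Share of cells with at least 1 UMI of each member (y axis, percent, 95% Wilson interval) after thinning to 1000 UMIs per cell, over all libraries, in Klrd1 cells, Cd3 cells with and without Klrd1, C1q cells and neutrophil-gate cells, each class thinned in its own draw. Pooled Klrd1 cells are highest for every member except Ctsw, for which Cd3 cells with Klrd1 are highest (44.6%). Against all Cd3 cells, the lower pooled share of Ctsw in Klrd1 cells is the order of sham 1. In the injured libraries 52 of 101 Klrd1 cells and 344 of 1087 Cd3 cells held it.

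Several members were also counted in the same cell, as a description with no test. At 1000 UMIs, 80.4% of Klrd1 cells and 14.5% of Cd3 cells held at least 3 of the members, and 60.4% of Cd3 cells held none. In Cd3 cells this share was 3.15% in sham 1, 33.6% in mild 1, 12.8% in mild 2, 17% and 5.80% in the moderate libraries and 16.96% and 10.5% in the severe libraries, and the mild and the moderate replicates differed from each other by more than mild 2 did from sham 1. For Klrd1 cells the share with at least 3 members is given only pooled, and sham 1 supplied most of those cells. Gzma differed by library. Of Klrd1 cells that held Gzmk, 66.7% also held Gzma in sham 1 (222 cells), against 28.6% in the injured libraries together (70 cells). Ctsw ran the other way, with the lower share of Klrd1 cells in sham 1.

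Within the Cd3 class, the members lay mostly in cells that also held Klrd1 or a CD8 chain. Klrd1 was found in 316 of the 1477 Cd3 cells (21.4%). Ccl5 in those with Klrd1 was 2024 CPM in sham 1, 7781 in mild 1, 7903 in moderate 1, 6315 in severe 1 and 5156 in severe 2, and in those without it 228, 2339, 678, 504 and 708 CPM. In each of these 5 libraries, which had at least 20 cells of both kinds, the cells with Klrd1 were higher. Gzmm in Cd3 cells with Klrd1 was 302, 960, 1469, 1109 and 864 CPM in the same order, and 7.49, 269, 163, 120 and 149 CPM without it. Ctsw was 292, 1587, 704, 1205 and 1017 CPM with Klrd1 and 93.6, 700, 231, 447 and 353 CPM without it. Xcl1 went the other way in the pooled cells, with 56.4 CPM (45.1 to 69.6) with Klrd1 and 92.0 CPM (83.8 to 100.7) without it, where the Siglech cells lie. Gzma stayed low also in Cd3 cells with Klrd1, at 14.4 CPM pooled (9.03 to 21.8), and was found in 0.962% of them at 1000 UMIs, against 43.4% of Klrd1 cells.

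Cd8a and Cd8b encode the coreceptor of cytotoxic T cells and Cd4 that of helper T cells. The 549 Cd3 cells with a CD8 chain and no Cd4 held 10314 of the 10897 Ccl5 UMIs of the class, 1591 of the 1737 Gzmm UMIs, 1417 of the 1569 Nkg7 UMIs and 908 of the 1081 Gzmk UMIs. The 104 cells with Cd4 and no CD8 chain held 9, 1, 0 and 8 of them. Prf1 was divided less sharply, at 101 CPM (89.5 to 113.8) in cells with a CD8 chain and 26.1 CPM (14.3 to 43.8) in cells with Cd4. Neither coreceptor was found in 818 Cd3 cells.

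Across injury groups, the Klrd1 cells of the 1 usable sham library differed from those of the injured libraries in 3 members. Only sham 1, moderate 1, severe 1 and severe 2 had 20 Klrd1 cells. The spread of a single gene thus rests on the 2 severe libraries, with 1 residual degree of freedom. A group with 1 library was assumed to vary alike, and the edgeR p-values rest mostly on the spread of other genes. The mild group had no library with 20 Klrd1 cells. Moderate and severe were both compared with the same sham library, so the comparisons are not independent. The summed UMIs of these tests do not separate fewer transcripts per cell from fewer cells that hold the gene. For Ctsw, the share of Klrd1 cells that held it at equal depth, given above, was lower in sham 1 than in the injured libraries. For Ccl5 and Xcl1 such shares are given only pooled.

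Xcl1, at 47.4 CPM in sham 1 and 462 to 808 CPM in the other 3, was higher in moderate by 2.99 ± 0.75 (log2, SE; adjusted p = 0.00457, edgeR) and in severe by 3.76 ± 0.72 (adjusted p = 6.42e-06, edgeR). Ctsw, at 62.1 against 514 to 1893 CPM, was higher by 2.68 ± 0.73 (adjusted p = 0.0135, edgeR) and 4.62 ± 0.74 (adjusted p = 4.41e-08, edgeR). Ccl5, at 24937 against 7827 to 12971 CPM, was lower, with log2 fold changes of -2.04 ± 0.36 in moderate (adjusted p = 5.54e-06, edgeR) and -0.97 ± 0.29 in severe (adjusted p = 0.0126, edgeR). These were 3 of the 8 members tested in each comparison, against 2.38% of all genes for moderate and 10.1% for severe. The other 5 members, Gzma, Gzmk, Gzmm, Prf1 and Nkg7, did not pass the test in either. The call of Ccl5 in severe was lost with DESeq2 (-0.99) and with no filter on low counts (-0.98). It was also lost with a minimum of 10 cells (-1.01) and with all deposited cells (-0.11), and was held in the other settings. Of these, leaving out Siglech cells could change nothing, as no Klrd1 cell had 2 Siglech UMIs. In moderate, Xcl1 lost its call with DESeq2 (adjusted p = 0.0633), and Ctsw with no filter (adjusted p = 0.0905) and with a minimum of 10 cells (adjusted p = 0.173). Scaling by library size alone moved the calls over all genes in moderate from 25 higher and 54 lower to 37 and 44, with the same count of 3 members.

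Severe against moderate gave calls that other settings took away. Gzmk (1.68, adjusted p = 0.0486, edgeR), Nkg7 (1.70, adjusted p = 0.028, edgeR) and Ccl5 (1.07, adjusted p = 0.0218, edgeR) were higher in severe, 3 of 8 members against 5.24% of all genes. Scaling by library size changed the split over all genes from 73 higher and 101 lower to 26 higher and 130 lower and left no member called. No member was called either by DESeq2, without a filter on low counts, with the 2 groups fitted alone, without sham 1 or without cells rich in C1q transcripts. The settings called 44 to 318 of all genes, and a minimum of 10 cells gave 5 members called. In the smaller classes this added, Gzmk was 775 CPM in mild 1 (18 cells) and 785 in moderate 2 (10 cells), near moderate 1 and below both severe libraries, and Xcl1 was 273 and 1054 CPM and Ctsw 1091 and 134 CPM there, all above sham 1. All injured libraries together against sham 1, a comparison added after the data were seen, then gave 0 of 8 members called, against 1.29% of all genes (edgeR). Of the 8, Ccl5 (-1.70, adjusted p = 0.63), Xcl1 (3.48, adjusted p = 0.227) and Ctsw (3.80, adjusted p = 0.464) had an unadjusted p under 0.05 in edgeR.

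**Figure D5:**
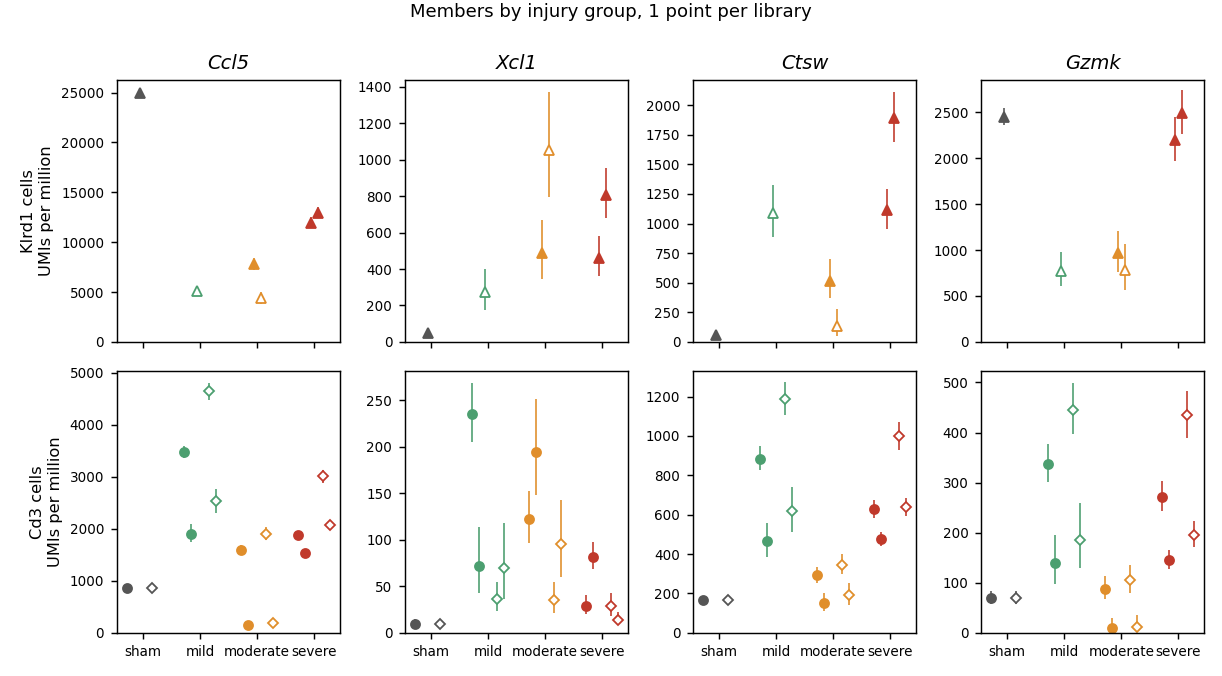
Ccl5, Xcl1, Ctsw and Gzmk by injury group (y axes, CPM of the class, linear, 95% Poisson intervals), with Klrd1 cells above (filled triangles at least 20 cells, open triangles 10 to 19) and Cd3 cells below (circles all Cd3 cells, open diamonds without Siglech cells). In Klrd1 cells sham 1 is highest for Ccl5 (24937 CPM) and lowest for Xcl1 (47.4 CPM) and Ctsw (62.1 CPM), and in Cd3 cells the Xcl1 points of mild and moderate fall when Siglech cells are left out.

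In Cd3 cells, replicates of 1 injury group were often further apart than the groups. Of the 8 libraries all but sham 2 entered, so sham was again the lone library sham 1. Gzmk was 69.2 CPM in sham 1, 337 and 140 in mild, 87.9 and 9.89 in moderate, and 272 and 145 in severe. Ccl5 was 870 CPM in sham 1, 3474 and 1906 in mild, 1596 and 155 in moderate, and 1883 and 1531 in severe. Moderate 2 was the lowest library for both, below sham 1, while moderate 1 was above it. Nkg7 was 89.1 CPM in sham 1, 646 and 192 in mild, 130 and 85.7 in moderate, and 283 and 206 in severe. Ctsw was 164 CPM in sham 1, 884 and 465 in mild, 292 and 152 in moderate, and 627 and 476 in severe. Both had their highest value in mild 1, with all mild and severe libraries above sham 1. Prf1 moved least, from 50.9 to 89.2 CPM over the 7 libraries, and Gzma did not exceed 9.25 CPM and was not tested here.

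Against sham, Xcl1 was the only member called in Cd3 cells. It was 9.03 CPM in sham 1, 235 and 72.1 in mild, 122 and 195 in moderate, and 29.2 and 81.8 in severe, all above sham 1. The log2 fold change was 3.45 ± 0.85 in mild (SE; adjusted p = 0.0257, edgeR), 3.38 ± 0.85 in moderate (adjusted p = 0.0434) and 2.17 ± 0.82 in severe (adjusted p = 0.136, edgeR). This made 1, 1 and 0 of 8 members, against 12.2%, 5.36% and 7.74% of all genes. Scaling by library size alone moved the median of all genes from 0.06 to 0.77 in mild, from 0.02 to 0.70 in moderate and from -0.02 to 0.45 in severe. The higher and lower calls moved with it, from 422 and 622 to 1412 and 238 in mild, from 255 and 204 to 704 and 98 in moderate and from 312 and 351 to 635 and 211 in severe. Without the Siglech cells, which sham 1 lacked, Xcl1 was 9.03 CPM in sham 1, 36.8 and 69.2 in mild, 35.05 and 95.1 in moderate and 28.5 and 13.9 in severe. None of the 8 members was then called, against 3.73%, 1.54% and 2.48% of all genes, and the log2 fold changes of Xcl1 were 1.79 (adjusted p = 0.151), 2.08 (adjusted p = 0.169) and 0.85 (adjusted p = 0.574, edgeR). In the Siglech cells of the Cd3 class themselves, Xcl1 was 224 CPM in sham 2, 798 and 81.0 in mild, 565 and 586 in moderate and 30.3 and 276 in severe, again with wide gaps between replicates.

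Between injured groups no member was called in Cd3 cells, against 0.642% of all genes for moderate against mild, 3.62% for severe against mild and 1.21% for severe against moderate (edgeR). At an unadjusted p under 0.05 lay Gzmk, Nkg7 and Ctsw in moderate against mild (log2 fold changes -2.10, -1.93 and -1.55) with Ifng in the other direction (2.39), Gzmk, Nkg7 and Ctsw in severe against moderate (2.08, 1.35 and 1.47), and Xcl1 in severe against mild (-1.27). Scaling by library size changed the calls over all genes in severe against mild from 137 higher and 173 lower to 72 and 230, and in severe against moderate from 34 and 70 to 27 and 102.

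The class difference itself was then compared between groups by an interaction term, with 1 residual degree of freedom for severe minus moderate and 2 for injured minus sham. With so few, these p-values too rest mostly on the spread of other genes. Moderate was here moderate 1 alone, as moderate 2 had 10 Klrd1 cells, and no fit of this contrast with moderate 2 was made. On the scale of log2(CPM + 10) the Ccl5 difference was 4.74 in moderate 2 and 2.29 in moderate 1. In severe 1 and severe 2 it was 2.66 and 3.07. In severe minus moderate, 3 of 9 members were called, against 1.37% of all genes: the Klrd1 minus Cd3 difference was larger in severe by 2.05 ± 0.45 for Xcl1 (log2, SE; adjusted p = 0.00148, edgeR), 1.46 ± 0.32 for Gzmm (adjusted p = 0.00101) and 1.05 ± 0.19 for Ccl5 (adjusted p = 1.86e-05). Without Siglech cells Gzmm (1.03, adjusted p = 0.0335) and Ccl5 (0.62, adjusted p = 0.00719) were still called in edgeR and Xcl1 was not (1.47, adjusted p = 0.33). The 9 macrophage and microglia markers differed along with these groups, summing to 11314 CPM in the Klrd1 cells of moderate 1 against 625 and 1321 CPM in those of severe 1 and 2, and to 20175 against 388 and 6654 CPM in the Cd3 cells, and their part in the result was not tested. In the 3 injured libraries together minus sham 1, a comparison added after the data were seen, Ctsw was the 1 of 9 members called (3.07 ± 0.61, adjusted p = 0.000102, edgeR), against 1.59% of all genes, and with the classes of 10 or more cells it was 2.65 (adjusted p = 0.00898). Without Siglech cells 3 of 9 were called, against 1.14%: Ctsw (2.51, adjusted p = 0.00139) and Xcl1 (2.54, adjusted p = 0.0147) were higher and Ccl5 was lower (-2.29, adjusted p = 0.000824) in edgeR.

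Other genes of the cytotoxic programme followed the members in part. Of 17 NK receptors and adaptors tested between the classes, 8 were higher in Klrd1 cells and none lower (median log2 fold change 1.90). Ncr1, the gene of the activating receptor NKp46, was at 51.0 CPM on average in Klrd1 cells and 0.301 CPM in Cd3 cells (adjusted p = 5.72e-05, edgeR). The lectin-like receptor genes Klri1, Klri2 and Klre1 had log2 fold changes of 5.98, 5.08 and 3.40, and Fcer1g, a signalling adaptor, and Klrb1c, another lectin-like receptor gene, had 2.49 and 1.87. Of 7 cytotoxic transcription factors tested, 3 were higher (median 1.20): Tbx21, which encodes T-bet (3.27), Id2, needed for NK cell development (1.91), and Hopx (1.20). Runx3, whose family's letters lay in 7 member promoters, stood at 116 CPM in Klrd1 cells and 106 CPM in Cd3 cells (log2 fold change 0.28, adjusted p = 0.858), and Eomes was too low to be tested. Of 7 cytokines and cytokine receptors that induce the members, 3 were higher (median 2.24), namely Il2rb (2.49), Il18rap (2.36) and Il12rb2 (2.30), which encode receptor chains for interleukins that NK cells respond to.

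Of the general machinery of the granule, 1 of 11 genes tested was called, Cst7, the gene of an inhibitor of cathepsins, which was higher in Klrd1 cells (1.54, adjusted p = 0.0443, edgeR). The median was 0.25, and the other 10 had log2 fold changes from -0.68 (Lamp1) to 1.28 (Stx11), sizes at which few changes can be detected with 4 libraries. Of 3 death ligands and cytokines tested, Ccl4, a chemokine gene, was higher (1.34, adjusted p = 0.0258, edgeR; median 0.40). Of 19 T cell genes, 12 were lower in Klrd1 cells and none higher (median -3.04, or -2.44 with genes at 0 in Klrd1 cells set to the limit that 3 counts allow). Among them were Cd8b, at 85.8 CPM in Cd3 and 5.58 CPM in Klrd1 cells, Icos (-3.04), Cd6 (-2.06) and Lat (-1.10). Foxp3 and Ccr7, genes of regulatory and of lymph node-homing T cells, were at 14.2 and 11.1 CPM in Cd3 cells and at 0 in Klrd1 cells.

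Receptors for what the members secrete were measured in the cells around. Ifngr1 and Ifngr2, the chains of the interferon gamma receptor, had medians of 529 and 175 CPM over the C1q cells of the 8 libraries. Ccr1, a chemokine receptor gene, had a median of 65.9 CPM (25.1 to 404) in neutrophil-gate cells and 6.44 CPM in C1q cells, and Ccr3 one of 0.361 CPM in C1q cells. Xcr1, the receptor of Xcl1, did not exceed 0.198 CPM in C1q cells and was too low to be tested. M6pr and Igf2r, the mannose 6-phosphate receptors that can carry granzymes, had medians of 219 and 37.6 CPM in C1q cells. Between the lymphocyte classes, Igf2r was lower in Klrd1 cells (-1.66, adjusted p = 0.0421, edgeR), the only 1 of 6 tested, and the median was 0.46. Ccr1 (1.09), Ifngr1 (0.85), M6pr (0.21) and Ifngr2 (-0.57) did not pass.

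Markers of other cell types were present in both classes. The summed CPM of the 9 macrophage and microglia markers ranged from 388 to 20175 in Cd3 cells and from 625 to 11314 in Klrd1 cells, and none of the 9 was called between the classes (median -0.07). None of 5 neutrophil markers tested was called (median 1.15). Of 6 oligodendrocyte markers 1 was higher in Klrd1 cells (Mag, 1.64; median 1.34). In sham 1 these 6 summed to 6163 CPM in Klrd1 cells and 1495 CPM in Cd3 cells. In moderate 1, severe 1 and severe 2 they summed to 301, 26.1 and 94.3 CPM in Klrd1 cells. The Cd3 cells there held 234, 40.5 and 89.6 CPM. Neutrophil markers summed to 34216 CPM in Klrd1 cells and 7862 CPM in Cd3 cells of sham 1. The part of these markers in the values of sham 1 was not tested. Both fibroblast markers tested were lower (Dcn, -3.13, and Col1a1, -2.37), and the 1 erythrocyte marker tested, Hbb, was lower (-3.13). Of 4 dendritic cell markers 2 were lower, Siglech, at 226 CPM in Cd3 and 1.63 CPM in Klrd1 cells, and Flt3, at 23.0 and 0 CPM. The 5 markers of this list summed to 7100 CPM in the Klrd1 cells of severe 1, above its Cd3 cells (3566 CPM). In sham 1, moderate 1 and severe 2 the sums were 317, 176 and 224 CPM in Klrd1 cells and 131, 1572 and 2567 CPM in Cd3 cells. The part of these markers in the values of severe 1 was not tested. No B cell marker was tested. With cells left out in which C1q transcripts reached 0.1% of UMIs, 7 members were again higher in Klrd1 cells. The settings of this fit called 76 to 489 of all genes in either direction.

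The genes whose levels most resembled the mean of the members over the 8 sums of library and class were taken from 2379 genes with a mean of at least 50 CPM. They were Klrb1a (Pearson's r = 0.994), an NK receptor gene, Stard10 (0.979), a lipid transfer protein gene, Plek (0.977), the gene of pleckstrin, Tbx21 (0.974) and Klri1 (0.974). The 8 sums share libraries in pairs and fall into 2 classes, so these values describe the likeness and were not tested.

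No relation of the shares of Cd3 cells and of Klrd1 cells with the order of injury was detected over the 8 libraries. Cd3 cells were 3.97% and 0.257% of kept cells in sham, 3.17% and 1.10% in mild, 2.02% and 1.07% in moderate, and 6.09% and 3.34% in severe. Klrd1 cells were 3.50% (95% Wilson interval 3.15 to 3.9%) and 0.0428% (0.00756 to 0.242%) in sham, 0.220% and 0.0131% in mild, 0.240% and 0.156% in moderate, and 0.700% and 0.326% in severe. The sham replicates lay far apart for both, sham 1 being the highest library for Klrd1 cells and sham 2 the lowest for Cd3 cells. Over the 8 libraries Spearman's rho with the order sham, mild, moderate, severe was 0.39 for Cd3 cells (exact permutation p = 0.361) and 0.29 for Klrd1 cells (exact permutation p = 0.513), and Pearson's r was 0.45 (exact permutation p = 0.257) and -0.38 (exact permutation p = 0.496). These 4 relations had an adjusted p of 0.513 each (Benjamini-Hochberg). Without the 2 sham libraries, which with the severe ones lie farthest from the middle of the order, r was 0.61 for Cd3 cells (exact permutation p = 0.2) and 0.76 for Klrd1 cells (exact permutation p = 0.0444) over 6 libraries, with rho at 0.60 and 0.84 (exact permutation p = 0.267 and 0.0667). Shares of cells depend on how many cells of other types a library held, and sham 1 held 2608 neutrophil-gate cells.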

How the data were processed

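Single cells of rat spinal cord were captured by the authors with the 10x Chromium 3' kit, in 2 libraries for each of 4 injury groups. According to the submitters' processing notes, reads were processed with Cell Ranger on Rnor_6.0 and analysed in Seurat. The deposited matrices hold raw UMI counts per gene and cell, without normalization, and no cell annotation was used.

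From these counts, cells were kept with at most 10% mitochondrial UMIs, after removing the 7.7% with the highest doublet scores per library (Scrublet in scanpy 1.11.5) and cells beyond 2 SD of the library mean, after the limits in the study's methods. This left 55455 of 68658 cells. UMIs were summed per library and class, and sums of at least 20 cells were tested with edgeR 4.0.16 in R 4.3.3 (TMM, filterByExpr, glmQLFit, glmQLFTest), with Benjamini-Hochberg adjustment over all genes tested and a threshold of 0.05. Cells of 1 library were not treated as replicates. The class fit had the library as a block, and the group fits had none. Single values were tested by exact permutation in scipy 1.17.1 under Python 3.11.15. The script was tested on simulated counts of the class fit with 200 of 8061 genes changed, of which 3.8% were recovered at a log2 fold of 1, 78.7% at 2 and 90.6% at 3.

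The members and gene lists were chosen with earlier results of these data known. Genes named in the text are the 10 members, per list the called genes with the 3 largest and the 3 smallest fold changes, the receptors of the secreted members and the 5 genes most like the members. A gene that this rule names is not reported here. Of 145 list genes, 135 were in the gene table. Alternatives were DESeq2 1.42.0, scaling by library size, no filter on low counts, all deposited cells, no doublet removal, a minimum of 10 cells, other UMI limits for the classes, cells low in C1q, no library block, a replicate block, only the 2 groups compared, a pseudocount of 1 CPM, a mean over cells, thinning to 500 UMIs or none, and leaving out each library. Leaving out Siglech cells, joining the injured libraries, a minimum of 10 cells in the class difference and the Gzmb copies were chosen after the data were seen.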

Additional observations from a re-analysis of the deposited data

Results flagged for a closer look

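The Klrd1 minus Cd3 difference of Gzmm, Ccl5 and Xcl1 was larger in the severe libraries than in moderate 1. This was a test of the difference itself (interaction term in edgeR, 1 residual degree of freedom, moderate with 1 library). The gap was 1.46 for Gzmm (log2; adjusted p = 0.00101), 1.05 for Ccl5 (adjusted p = 1.86e-05) and 2.05 for Xcl1 (adjusted p = 0.00148). Without Siglech cells Xcl1 lost its call (1.47, adjusted p = 0.33). Moderate 2 did not enter, and on the scale of log2(CPM + 10) its Ccl5 difference was 4.74, against 2.66 and 3.07 in severe. Macrophage and microglia markers summed to 11314 CPM in the Klrd1 cells of moderate 1. In those of the severe libraries they summed to 625 and 1321 CPM, and their part was not tested. For Ctsw the class difference was larger by 3.07 in the 3 injured libraries than in sham 1 (log2; adjusted p = 0.000102, edgeR), with 62.1 CPM in the Klrd1 cells of sham 1 and 514 to 1893 CPM in those of the injured libraries. What sets sham 1 apart in other ways was not tested for its part in this value. The p-values of these interaction terms rest mostly on the spread of other genes, because few residual degrees of freedom are left.

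Xcl1 stood at 496 CPM in the 233 cells with Siglech that belong to neither class and enter no comparison, against 0.116 CPM in C1q cells. Among libraries it was 998 CPM in sham 2 (16 UMIs in 4 cells), 449 and 456 in mild, 805 and 1041 in moderate and 68.7 and 599 in severe, so it was present in a control library too, and no group difference was tested in these cells.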

How the results depend on the processing

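Between the classes, 7 to 8 members were called higher in Klrd1 cells without 1 library in turn, and 5 to 8 under all alternatives, with 76 to 489 genes called (301 as reported). Of the members' class fold changes Ctsw alone turned, to -0.031 with all deposited cells, -0.013 with at least 2 Klrd1 UMIs and -0.12 without severe replicate 2, within a range of -0.12 to 1.25 (without sham replicate 1) when a library was left out. The 3 negative values did not pass the test. The severe minus moderate class difference had 5 members with all deposited cells, and injured minus sham had 3 without Siglech cells. In Cd3 cells, mild against sham gave 3 members by library size only, 3 with no filter on low counts, 0 without Siglech cells and 0 to 2 with a library left out (0 without mild replicate 1). Moderate against sham gave 0 with at least 3 Cd3 UMIs, 0 without Siglech cells and 0 to 1 with a library left out (0 without moderate replicate 2). Severe against sham gave 1 with no filter, 1 with all deposited cells and 0 to 1 with a library left out. With no filter, moderate against mild gave 4, severe against mild 1 and severe against moderate 3, and with a library left out 0 to 1, 0 to 1 and 0 to 2. Counts over all genes ranged from 119 to 1719 in mild against sham, 121 to 932 in moderate against sham, 194 to 1153 in severe against sham, 1 to 360 in moderate against mild, 97 to 791 in severe against mild and 55 to 466 in severe against moderate. In Klrd1 cells, severe against moderate gave 0 with DESeq2, 0 by library size only, 0 with no filter, 0 with the 2 groups alone, 0 with C1q under 0.1% of UMIs, 0 without sham replicate 1, 5 with all deposited cells and 5 with a minimum of 10 cells. Genes called there ranged from 44 to 318, in moderate against sham from 18 to 320 and in severe against sham from 69 to 653. The rank correlation of the Klrd1 share with injury ranged from 0.13 to 0.84 when a library was left out, the highest without sham replicate 1 (exact permutation p = 0.0222). The cause of these changes was not tested. Of the results that answer a comparison, 152 alternative values stayed on the same side of the threshold or within 1.5 times of the reported count. Another 33 did not, and 1 passed the threshold anew. The 152 include fits that could not differ from the reported ones. These are Klrd1 cells between groups without Siglech cells and the class fit with a replicate block.

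The labels do not say whether replicate numbers pair the libraries. Same-numbered deviations in Cd3 cells correlated at 0.06, 0.03 and -0.14 between the injured groups. With 1 difference per group and sham left out, these values cannot decide whether the numbers pair the libraries. With the replicate block, mild against sham gave 2 members (749 genes against 1044), moderate against mild 1 and severe against moderate 1, and no other comparison changed its count of members. In the class fit the replicate block could change nothing, since for its 4 libraries it gives the same model as the library block (301 genes called in both). Klrd1 cells between groups could not be fitted with the replicate block, for lack of residual degrees of freedom. Depth limits Ifng, with 55 UMIs, and Klrd1 cells outside sham 1, with at most 26 per library.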
